A study of Rattus norvegicus with 18 samples.

Results

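The genes described here were 7 adenylyl cyclases, Adcy1, Adcy2, Adcy3, Adcy5, Adcy7, Adcy8 and Adcy9, and 3 CREB factors, Creb1, Crem and Crebbp. They were taken by gene symbol from the gene counts and made up 10 of the 38445 genes counted. RNA-Seq was performed on the dorsal hippocampus of 18 adult male Sprague Dawley rats, 75 to 85 days old when purchased, with 6 rats in each of 3 groups. All rats were wild type and first received the Lieber-DeCarli control liquid diet, a complete liquid food in which ethanol can replace carbohydrate, and the control group stayed on it for 16 days. The ethanol group was brought to ethanol over 7 days and then kept on the diet with 9% ethanol for 16 days, with no withdrawal. The withdrawal group had the same introduction and 15 days of 9% ethanol, and then control diet for 24 h. Each library came from 1 rat.

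Adenylyl cyclases make the second messenger cyclic AMP from ATP when a receptor activates the stimulatory G protein, and the isoforms differ in what else controls them: calcium and calmodulin stimulate Adcy1 and Adcy8, calcium inhibits Adcy5 and Adcy6, and the beta-gamma subunits of G proteins stimulate Adcy2, Adcy4 and Adcy7. Cyclic AMP frees the catalytic subunits of protein kinase A, which phosphorylate the transcription factor encoded by Creb1, and the acetyltransferase encoded by Crebbp then binds phosphorylated CREB at the cyclic AMP response element (CRE) of target promoters. Crem encodes activators and, from an internal promoter that itself carries CREs, a short repressor known as ICER. The pathway is known in the hippocampus for its part in long-lasting synaptic plasticity, and Adcy7 is known as an isoform whose activity is enhanced by ethanol.

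Promoter windows of 300 bases, from 250 bases before to 50 bases after an annotated start, were read from RefSeq (GRCr8) for 8 of the 10 genes, which had 11 windows. Adcy3 and Adcy8 had no window. The full CRE, TGACGTCA, is its own reverse complement and was counted once per match. It occurred in 1.83% of all 33469 windows and in 2 of the 11 windows here, both of Crem. The shorter TGACG, which lies within the full CRE, was searched on both strands. It occurred in 21.2% of all windows and in 6 of the 11 windows here. Both Crem windows with a full CRE are shown because they lie at downstream starts of the gene, with the full CRE in capitals, and the first of the 2 Creb1 windows is shown because it holds TGACG 3 times, in capitals. All 3 are on the plus strand.

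Crem, chr17:58984547-58984846: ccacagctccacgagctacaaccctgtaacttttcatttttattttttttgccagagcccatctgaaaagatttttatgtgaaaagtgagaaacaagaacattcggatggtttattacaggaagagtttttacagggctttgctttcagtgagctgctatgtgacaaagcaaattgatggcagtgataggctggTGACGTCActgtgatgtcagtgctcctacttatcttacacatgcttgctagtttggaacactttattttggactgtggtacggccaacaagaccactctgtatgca
Crem, chr17:58985240-58985539: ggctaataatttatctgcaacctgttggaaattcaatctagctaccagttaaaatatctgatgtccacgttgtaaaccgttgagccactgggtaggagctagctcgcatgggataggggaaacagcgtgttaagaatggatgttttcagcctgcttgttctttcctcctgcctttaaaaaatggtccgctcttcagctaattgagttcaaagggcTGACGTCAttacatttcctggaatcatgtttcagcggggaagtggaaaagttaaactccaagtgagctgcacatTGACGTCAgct
Creb1, chr9:73397259-73397558: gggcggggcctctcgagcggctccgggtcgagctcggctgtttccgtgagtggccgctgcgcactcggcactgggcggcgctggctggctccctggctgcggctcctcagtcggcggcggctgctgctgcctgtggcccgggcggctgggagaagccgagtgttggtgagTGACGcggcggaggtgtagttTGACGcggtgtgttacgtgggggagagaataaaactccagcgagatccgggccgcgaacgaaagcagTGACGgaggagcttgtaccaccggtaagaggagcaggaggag

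The CRE of the first of these Crem windows began 56 bases before the start. In the second, 1 CRE began 35 bases before the start and the other 39 bases after it. The other Crem window, at the start farthest upstream, held no full CRE. The deposited values count all exons of Crem together, so transcripts from these starts were not separated, and a match of letters is a description only.

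Each library held between 30873228 and 42679748 read pairs assigned to genes, and no pair of rats in a group matched within sampling noise. Counts were scaled by the TMM method to CPM, the count of a gene relative to the scaled total of its library, and 17853 genes above 0.5 CPM in at least 1 rat, all 10 genes among them, entered a limma-voom fit of the 3 groups together, with 3 surrogate variables, which are unnamed sources of variation estimated from the data. A gene was called differentially expressed (DE) at q < 0.1, where q is the Benjamini-Hochberg adjusted p over all genes tested. All 6 neuron markers and 4 of 5 markers each of dentate granule, CA1 and CA3 cells passed the filter on low counts, but so did all 6 thalamic, all 5 striatal and 5 of 6 choroid plexus markers, so passing it does not tell the labelled tissue from its neighbours. The summed level of the CA3 markers was 628 to 939 CPM and that of the CA1 markers 216 to 610, beside 196 to 1010 CPM for the thalamic markers. In 4 libraries the granule cell or striatal markers stood apart, and these are the 4 rats left out of fits below. Withdrawal rats 1 and 5 had the lowest summed level of 5 dentate granule cell markers, 233 and 223 CPM against 328 to 392 CPM in the other 16 rats. Ethanol rats 1 and 4 had the highest summed level of 5 striatal markers, 394 and 299 CPM against 98.1 to 190 CPM in the others. The choroid plexus markers stood apart in withdrawal rats 4 and 5, at 26.5 and 28.6 CPM against 1060 to 5200 CPM in the other 16 rats. Withdrawal rat 4 is not among the 4 and stayed in the fits without them. Without withdrawal rat 4 alone, none of the 10 genes was DE in any comparison by limma-voom, as with all rats. The summed level of 6 astrocyte markers was 2870 to 3240 CPM in control and 2450 to 3230 CPM in ethanol rats, and 3570 to 3950 CPM in 5 of 6 withdrawal rats, with 2380 CPM in withdrawal rat 5. By the first index sequence in the file headers the libraries fell into 3 sets: all control rats in the first, all ethanol rats and withdrawal rats 1 and 2 in the second, and the other 4 withdrawal rats in the third. Control against either other group therefore cannot be told apart from index set.

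Adcy1 was by far the most abundant cyclase in this tissue. Per kilobase of exon, the level of Adcy1 was 110.5 ± 18.4 CPM (SD, n = 18 rats), that of Adcy2 was 32.5 ± 3.81 and that of Adcy9 was 21.8 ± 3.47. Adcy3 followed at 17.2 ± 0.801 and Adcy5 at 14.3 ± 3.77 CPM per kb. The order of Adcy1 over Adcy2 and of Adcy2 over Adcy9 held in all 18 rats, while Adcy9 lay above Adcy3 in 16 and Adcy3 above Adcy5 in 16. Adcy8, at 5.21 ± 1.38 CPM per kb, lay below Adcy6 and above Adcy4 in all 18 rats. Adcy7 was the lowest of the 7, at 0.641 ± 0.343 CPM per kb, and only the bicarbonate-stimulated soluble cyclase Adcy10 was lower among the 10 cyclases, at 0.357 ± 0.136. Adcy1 made up 53.1% ± 2.03 of the summed level per kb of the 10 cyclases in control rats, 52.5% ± 3.17 in ethanol rats and 48.8% ± 7.06 in withdrawal rats (SD, n = 6). Among the CREB factors, Crebbp was at 6.10 ± 0.758 CPM per kb and Creb1 at 5.41 ± 0.549, with Crebbp above Creb1 in 16 of 18 rats. Crem, at 2.54 ± 0.339 CPM per kb, lay below Creb1 in all 18. Exon lengths are those deposited by the authors, from 3460 bases for Adcy4 to 13894 for Adcy7.

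**Figure D1:**
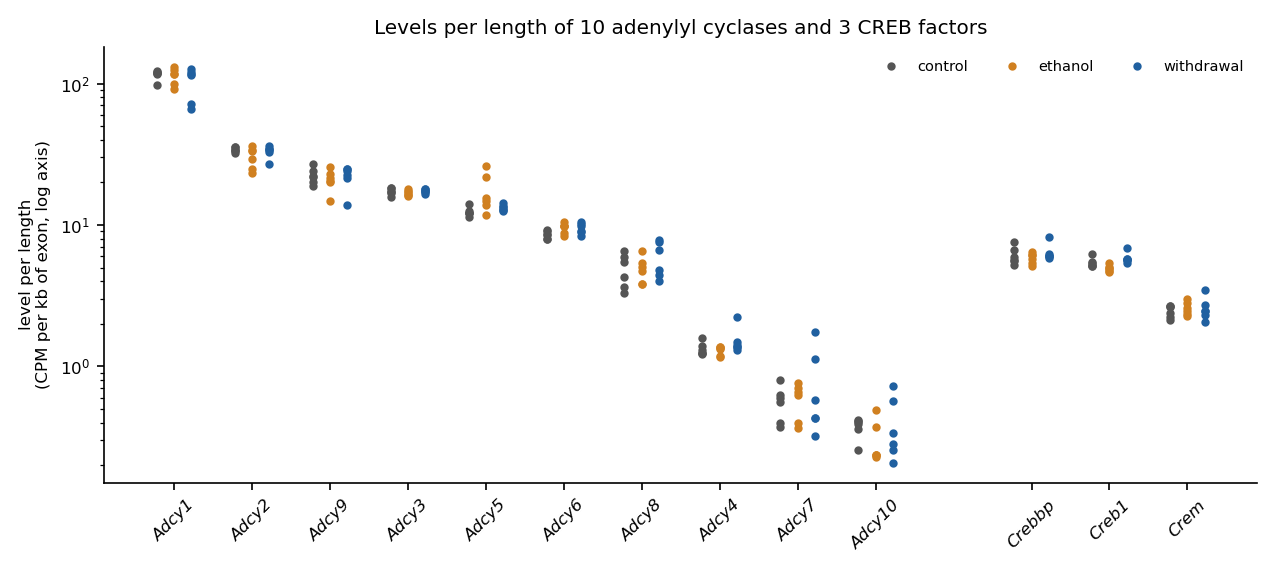
Level per length of 10 adenylyl cyclases and 3 CREB factors, in CPM per kilobase of exon on a log axis, with 1 point per rat and 6 rats per group. Adcy1 lies above every other cyclase in all 18 rats. Adcy7 and Adcy10 have the lowest means, with Adcy7 below Adcy4 in 17 of 18 rats.

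None of the 10 genes was DE in any comparison by limma-voom. Among all tested genes, the share DE was 5.41% for withdrawal vs. control, 0.493% for ethanol vs. control and 2.72% for withdrawal vs. ethanol, so no call among 10 genes lies near that background. At an unadjusted p under 0.05, 1 of the 10 passed in withdrawal vs. control (Adcy2), 1 in ethanol vs. control (Adcy5) and 2 in withdrawal vs. ethanol (Adcy8 and Creb1), against 19.7%, 12.5% and 16.7% of all genes tested. By the quasi-likelihood test of edgeR with 3 surrogate variables none was called in any comparison, and by DESeq2 with them 1 was called, Creb1 between withdrawal and ethanol, where that fit called 6.59% of all genes. No gene had groups that did not overlap, which over all genes occurred in 1.06% (withdrawal vs. control), 1.32% (ethanol vs. control) and 1.22% (withdrawal vs. ethanol). The median log2 fold change of the 10 genes was 0.08, -0.01 and 0.05 in the same order, beside medians of 0.000303, 0.000455 and -0.000236 over all genes. Fold changes against control in the ethanol and in the withdrawal group share the same 6 control rats.

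**Figure D2:**
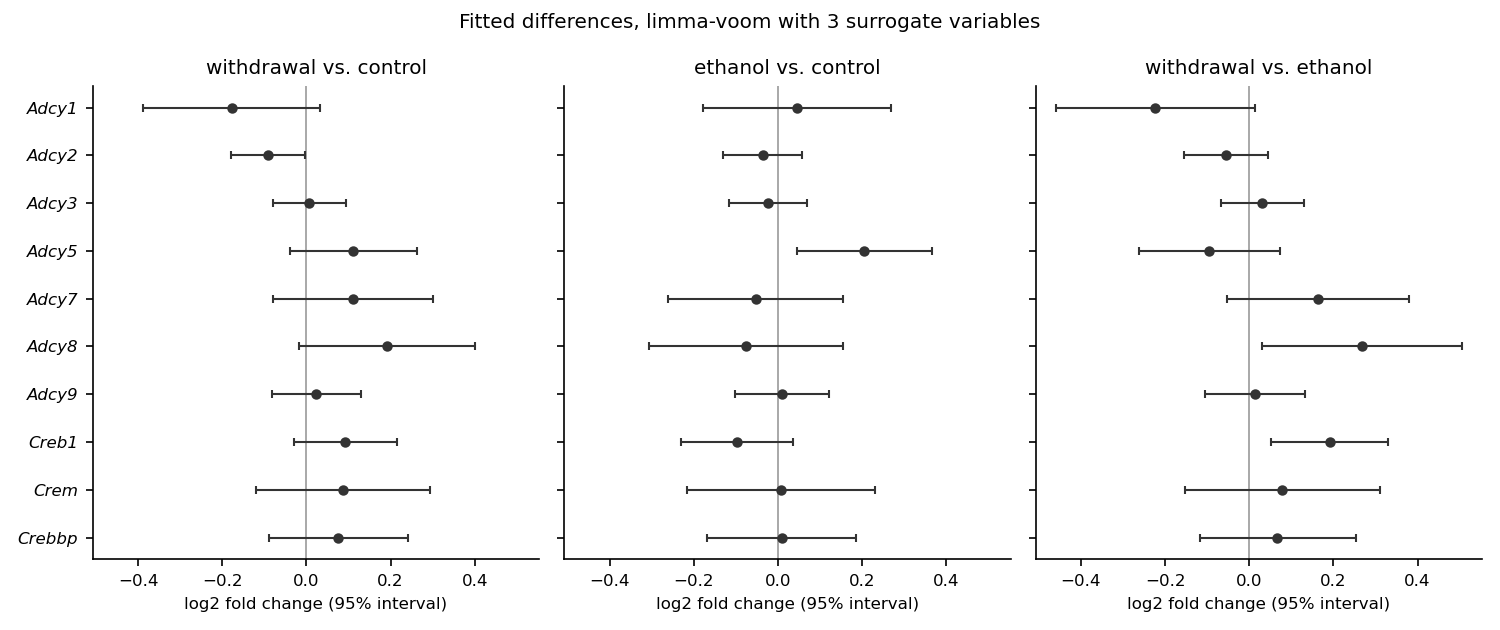
Fitted log2 fold changes of the 10 genes in the 3 comparisons, with points for the estimate and bars for the 95% interval from limma-voom with 3 surrogate variables. All values lie between -0.22 and 0.27, and no gene passed q < 0.1.

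Adcy1 (chr14:87311970-87429880, plus strand, in Rnor_6.0 as all gene positions here), a calmodulin-stimulated cyclase, differed less between the groups than between single rats of the withdrawal group. Its level was 1326 to 1694 CPM in control rats (median 1625), 1261 to 1803 CPM in ethanol rats (median 1604) and 901 to 1727 CPM in withdrawal rats (median 1579). Withdrawal rats 1 and 5, at 901 and 976 CPM, lay below every other rat of the study, while the other 4 withdrawal rats lay within the range of the ethanol group. The fitted log2 fold change was -0.18 ± 0.10 (SE) between withdrawal and control (q = 0.338 by limma-voom, 95% interval -0.39 to 0.03). It was 0.05 ± 0.106 between ethanol and control (q = 0.906 by limma-voom). Without withdrawal rats 1 and 5 the value between withdrawal and control was 0.02 (q = 0.918 by limma-voom). These rats also had the lowest summed granule cell markers. The granule cell marker Prox1 was at 72.9 and 52.9 CPM in these rats and at 108 CPM or more in the other 16. Dock10 was also lowest in them, at 114 and 145 CPM. C1ql2 was at 43.6 and 22.6 CPM, but ethanol rat 4 was lowest at 20.4 CPM. Dsp was lowest in withdrawal rat 4, at 1.51 CPM. The part of the dissection in the Adcy1 values was not tested, and fewer cells of a type cannot be told apart from less RNA per cell in these bulk libraries.

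Adcy8 (chr7:105353883-105593372, minus strand), another calmodulin-stimulated cyclase, was highest in the same pair of rats in which Adcy1 was lowest. Its level was 17.2 to 34.2 CPM in control rats (median 25.4), 19.7 to 33.8 CPM in ethanol rats (median 25.4) and 20.8 to 40.9 CPM in withdrawal rats (median 29.6). Withdrawal rats 1, 3 and 5 lay above every control and ethanol rat, and the other 3 lay within those ranges. The fitted log2 fold change was 0.27 ± 0.113 between withdrawal and ethanol, the largest of the 30 values, and it did not pass (q = 0.240 by limma-voom, 95% interval 0.03 to 0.51). Between withdrawal and control it was 0.19 ± 0.099 (q = 0.294 by limma-voom). Leaving out withdrawal rat 2, the lowest of its group, brought q to 0.0824 and 0.0914 by limma-voom in these comparisons, the lowest of 37 alternative fits in which q reached 0.840 and 0.969. Without the 4 rats that stood apart the values were 0.35 (q = 0.169) and 0.25 (q = 0.356) with surrogate variables, and 0.14 (q = 0.840) and 0.03 (q = 0.969) without them. Within the index set shared with the ethanol rats, withdrawal rats 1 and 2 lay 0.23 above them in mean log2 CPM, but withdrawal rat 2 alone differed by -0.255, so this direction rested on withdrawal rat 1. Summed granule cell and interneuron markers also stood apart in withdrawal rats 1 and 5, and their part in the Adcy8 values was not tested.

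Adcy3 (chr6:28570941-28648848, plus strand), which calmodulin also stimulates and which is known from primary cilia of neurons, was the most even of the cyclases. It ranged from 76.0 to 89.3 CPM in control rats (median 84.0), from 78.1 to 87.7 CPM in ethanol rats (median 82.1) and from 79.8 to 87.7 CPM in withdrawal rats (median 84.7). The groups overlapped almost completely. Its log2 fold change was 0.01 ± 0.041 in withdrawal and -0.02 ± 0.044 in ethanol rats against control, and the 95% intervals, -0.08 to 0.09 and -0.12 to 0.07, correspond to folds of 0.946 to 1.07 and 0.922 to 1.05.

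**Figure D3:**
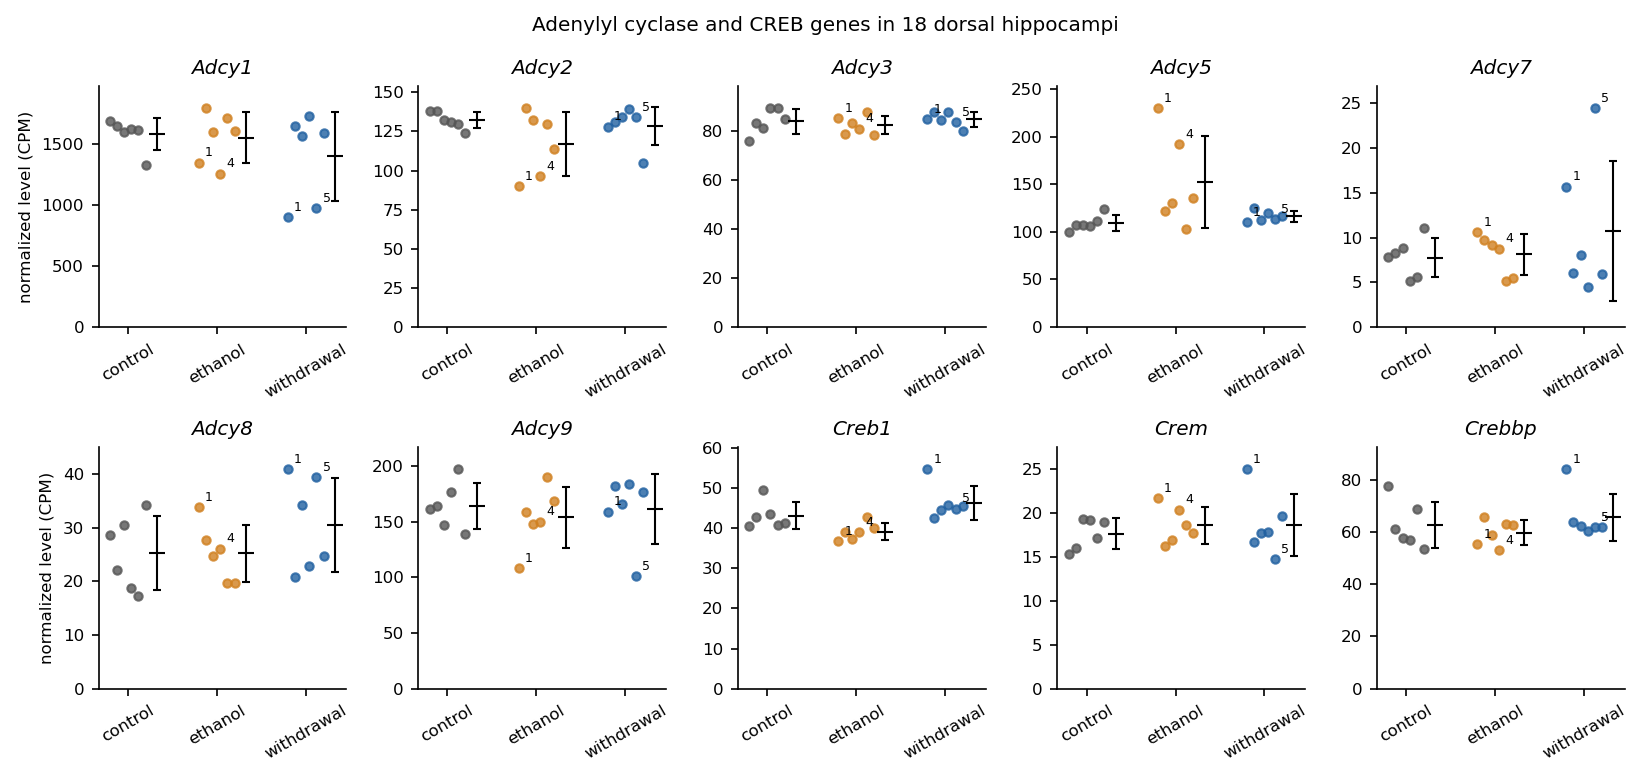
TMM-normalized level in CPM of each of the 10 genes, with 1 point per rat, the mean and SD of the 6 rats of a group as a bar beside them, and the numbers 1 and 4 (ethanol) and 1 and 5 (withdrawal) at the rats that stood apart in striatal or granule cell markers. Adcy5 is highest in ethanol rats 1 and 4, Adcy1 is lowest in withdrawal rats 1 and 5, and Creb1 lies higher in 5 of 6 withdrawal rats than in all ethanol rats.

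Adcy5 (chr11:68695839-68842452, minus strand), the calcium-inhibited cyclase that is prominent in striatum, was higher on average in the ethanol group than in either other group. Its level was 100.4 to 124 CPM in control rats (median 107), 103 to 230 CPM in ethanol rats (median 133) and 110.0 to 125 CPM in withdrawal rats (median 115). Ethanol rats 1 and 4, at 230 and 192 CPM, lay far above the rest, and with ethanol rats 3 and 6 they were above all control rats, while ethanol rats 2 and 5 lay within the control range. The mean over 6 rats was 152 ± 48.5 CPM in the ethanol group and 109 ± 8.18 CPM in the control group (SD). On the log2 scale this difference had, in a two-sided exact permutation test, p = 0.0260, or 0.260 after adjustment over the 30 tests of single genes. The fitted log2 fold change with surrogate variables was 0.21 ± 0.076, or 0.43 ± 0.139 without them, and neither passed (q = 0.274 and 0.265 by limma-voom). DESeq2 without surrogate variables gave 0.48 with q = 0.0626, the lowest of 37 alternative fits, in which q ran up to 0.488. Of these, 3 called Adcy5, 1 of them the limma-voom fit without withdrawal rat 5. The shares of all genes called in these 3 fits are not given here.

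The rats with the highest Adcy5 were also those with the highest summed striatal markers. The dopamine receptor gene Drd1 was at 36.2 and 30.8 CPM in ethanol rats 1 and 4 and at 5.89 to 14.0 CPM in the other 16 rats. Drd2 did not set ethanol rat 4 apart, at 14.8 CPM against 15.3 CPM in withdrawal rat 5. Ppp1r1b made up most of the sum, at 77.5 to 91.3 CPM in control rats. All 5 striatal markers were detected in every library, with a summed level of 98.1 to 123 CPM in control rats, 110.0 to 394 CPM in ethanol rats and 108 to 165 CPM in withdrawal rats. Thalamic markers were highest in ethanol rat 1 as well, at 1010 CPM. Without ethanol rats 1 and 4 the fitted log2 fold change of Adcy5 between ethanol and control was 0.16 ± 0.072 (q = 0.401 by limma-voom), and without withdrawal rats 1 and 5 it was 0.21 ± 0.057 (q = 0.0892). Between withdrawal and ethanol it was -0.095 ± 0.080 (q = 0.585 by limma-voom). Of 37 alternative fits 1, DESeq2 without surrogate variables, called it, with -0.39 (q = 0.0920, against up to 0.987 in the others). By limma-voom without surrogate variables it was -0.33 (q = 0.214). Without the 4 rats that stood apart it was 0.003 (q = 0.987 by limma-voom with surrogate variables). The source of the marker levels and their part in the Adcy5 values were not tested.

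**Figure D4:**
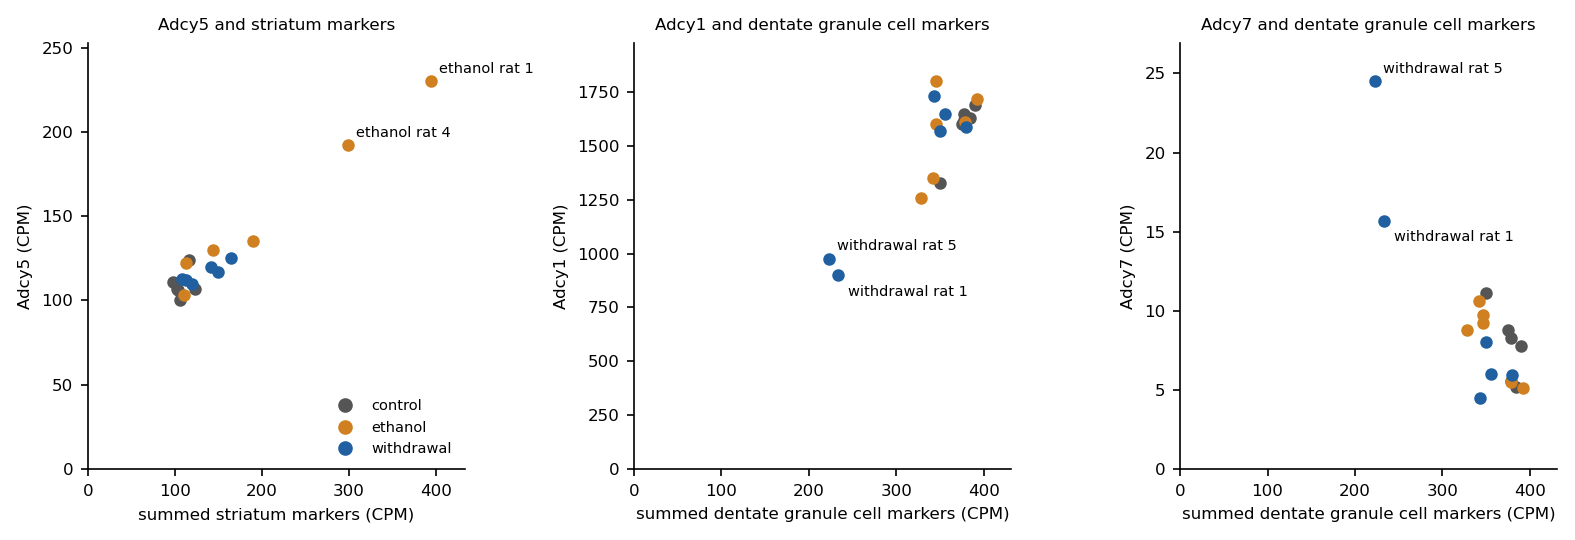
Level of Adcy5 against the summed striatal markers, and of Adcy1 and Adcy7 against the summed dentate granule cell markers, all in CPM on linear axes with 1 point per rat. Ethanol rats 1 and 4 lie apart in the first panel and withdrawal rats 1 and 5 in the other two.

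Adcy2 (chr1:37043071-37698390, plus strand) and Adcy7 (chr19:19702307-19762973, minus strand) belong to the cyclases that beta-gamma subunits stimulate. LOC100362709, with 25 to 64 counts per library, overlaps Adcy2 on the same strand. Adcy2 was at 124 to 138 CPM in control rats (median 131.5), 89.9 to 139.7 CPM in ethanol rats (median 122) and 105.0 to 139.0 CPM in withdrawal rats (median 133). Ethanol rats 1 and 4, at 89.9 and 96.4 CPM, were the lowest of the 18 rats, and withdrawal rat 6 stood alone at the bottom of its group. Against control, its fitted value in withdrawal was a log2 fold change of -0.09 ± 0.042 (q = 0.238 by limma-voom). It had q = 0.0666 when withdrawal rat 2 was left out and q up to 0.912 in other alternatives. In ethanol rats against control the value was -0.04 ± 0.045 with surrogate variables and -0.195 ± 0.095 without them (q = 0.794 and 0.455 by limma-voom). Between withdrawal and ethanol the value was -0.06 with surrogate variables and 0.15 without them (q = 0.582 and 0.399 by limma-voom). Without the 4 rats that stood apart and without surrogate variables it was -0.03 (q = 0.937).

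Adcy7 was at 5.17 to 11.1 CPM in control rats (median 8.01), 5.10 to 10.6 CPM in ethanol rats (median 9.00) and 4.49 to 24.5 CPM in withdrawal rats (median 7.01). Withdrawal rats 5 and 1, at 24.5 and 15.7 CPM, exceeded every other rat, and the other 4 withdrawal rats lay between 4.49 and 8.02 CPM. The mean of the withdrawal group was thus 1.38 times that of the control group while its median was lower. The fitted log2 fold change was 0.11 ± 0.090 (q = 0.524 by limma-voom), and without withdrawal rats 1 and 5 it was -0.01 ± 0.096 (q = 0.967 by limma-voom). Over 37 alternative fits it ran from -0.34, without the 4 rats that stood apart and without surrogate variables, to 0.47, by DESeq2 without surrogate variables on all rats, and none called it (q = 0.140 to 0.985). Withdrawal rats 1 and 5 had the lowest summed granule cell markers. They also had the highest summed interneuron markers, 659 and 806 CPM against 366 to 592 CPM in the others. The part of either in the Adcy7 values was not tested.

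Adcy9 (chr10:11392698-11515406, plus strand), a widely expressed cyclase that forskolin stimulates only weakly, was at 139 to 197 CPM in control rats (median 163), 108 to 190 CPM in ethanol rats (median 154) and 101 to 184 CPM in withdrawal rats (median 171.5). The lowest rats were withdrawal rat 5 at 101 CPM and ethanol rat 1 at 108 CPM, which also had the lowest CA1 pyramidal cell markers, 245 and 216 CPM against 345 to 610 CPM in the others. Against control, the log2 fold changes of Adcy9 were 0.02 ± 0.050 in withdrawal and 0.01 ± 0.053 in ethanol rats (q = 0.829 and 0.962 by limma-voom). Without surrogate variables they were -0.04 ± 0.143 and -0.10 ± 0.143 (q = 0.942 and 0.826 by limma-voom).

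Creb1 (chr9:71229753-71298994, plus strand), the transcription factor at the end of the pathway, came closest to a difference between the groups. Its level was 36.8 to 42.8 CPM in ethanol rats (median 39.1), 40.6 to 49.6 CPM in control rats (median 42.1) and 42.5 to 54.7 CPM in withdrawal rats (median 45.2). Of the 6 withdrawal rats, 5 lay above all ethanol rats, and only withdrawal rat 2 at 42.5 CPM lay below ethanol rat 5 at 42.8 CPM. The group means were 46.3 ± 4.24 CPM for withdrawal and 39.2 ± 2.15 CPM for ethanol (SD, n = 6), a ratio of 1.18. The two-sided exact permutation test gave p = 0.00433, and 0.130 after adjustment over the 30 tests of single genes. By limma-voom with 3 surrogate variables the log2 fold change was 0.19 ± 0.066 with q = 0.155, the smallest q of the 10 genes in any comparison, and a 95% interval of 0.05 to 0.33. Without surrogate variables it was 0.23 ± 0.061 with q = 0.0684, so Creb1 was then called, in a fit that called 3.48% of all genes. Across all 37 alternative fits the value stayed between 0.14 and 0.24, q ran from 0.0137 to 0.464, and 5 of the fits called it, 1 of them the fit without ethanol rat 5 (q = 0.0657 by limma-voom).

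By their mean, control rats lay between the other groups, and neither comparison with control passed. Between ethanol and control, 5 of 6 ethanol rats lay below all control rats, with a log2 fold change of -0.10 ± 0.063 (q = 0.556 by limma-voom) and p = 0.0195 in the exact permutation test, or 0.260 after adjustment. Withdrawal rats had a log2 fold change of 0.09 ± 0.058 against control (q = 0.396 by limma-voom, exact permutation p = 0.171). Without withdrawal rats 1 and 5 this was 0.03 ± 0.057 (q = 0.842 by limma-voom). The value of ethanol against control was then -0.11 ± 0.054 (q = 0.369 by limma-voom). Withdrawal rat 1 was the highest of all rats at 54.7 CPM, and without withdrawal rats 1 and 5 the log2 fold change between withdrawal and ethanol was 0.14 ± 0.061 (q = 0.257 by limma-voom). Within the index set that both groups share, withdrawal rats 1 and 2 averaged 48.6 CPM against 39.2 CPM in the 6 ethanol rats, a difference of 0.30 in mean log2 CPM. Withdrawal rat 2 alone differed from them by 0.12. For 4 of the 10 genes the within-set difference turned sign when withdrawal rat 1 was left out: besides Adcy8, that in mean log2 CPM went from 0.31 to -0.385 for Adcy7, from 0.14 to -0.15 for Crem and from -0.34 to 0.09 for Adcy1. The 4 withdrawal rats of the third set averaged 45.2 CPM of Creb1. Over the 18 rats, 3 of 17852 genes had log2 CPM, centred within groups, that varied most like that of Creb1. They were Rbmxl1b (Pearson r = 0.892), the nuclear pore gene Nup58 (r = 0.891) and the splicing factor gene Prpf3 (r = 0.869). Withdrawal rat 1 at 54.7 CPM and control rat 3 at 49.6 CPM lay far from their groups in Creb1. Their weight in these r values was not tested.

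Crem and Crebbp overlapped widely between the 3 groups. Crem (chr17:57021704-57090888, plus strand) was at 15.4 to 19.3 CPM in control rats (median 18.1), 16.3 to 21.7 CPM in ethanol rats (median 18.2) and 14.8 to 25 CPM in withdrawal rats (median 17.9). The highest and the lowest rat were both in the withdrawal group, rats 1 and 5. Against control, Crem had log2 fold changes of 0.09 ± 0.098 in withdrawal and 0.01 ± 0.107 in ethanol rats (q = 0.664 and 0.987 by limma-voom). The 95% intervals were -0.12 to 0.29 and -0.22 to 0.23. Without withdrawal rats 1 and 5 the withdrawal value was 0.01 ± 0.070 (q = 0.959 by limma-voom). Over 37 alternative fits it ran from -0.02 to 0.14. The CRE-bearing starts of Crem shown above were not read apart from the rest of the gene in these values.

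Crebbp (chr10:11590994-11721039, plus strand), the acetyltransferase, was at 53.5 to 77.5 CPM in control rats (median 59.6), 53.0 to 65.7 CPM in ethanol rats (median 60.8) and 60.4 to 84.0 CPM in withdrawal rats (median 62.2). Withdrawal rat 1 stood alone at 84.0 CPM, and the other 5 withdrawal rats lay between 60.4 and 63.8 CPM, within the ranges of both other groups. Against control, withdrawal rats had a log2 fold change of 0.08 ± 0.078 (q = 0.626 by limma-voom), and -0.01 ± 0.075 (q = 0.982) without withdrawal rats 1 and 5. Crem, Creb1 and Crebbp were each highest of all 18 rats in withdrawal rat 1.

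Of 78 other genes of the pathway in 7 lists, 77 passed the filter on low counts, and 8 of these were DE between withdrawal and control, 6 higher and 2 lower. The background in this comparison was 5.41% of all genes tested, and 10.4% of the pathway genes were DE. The astrocyte markers given above were higher in 5 of 6 withdrawal rats than in every control rat, and their part in this count was not tested. Between ethanol and control none of the 77 was DE, and between withdrawal and ethanol 2 were, or 2.60% against a background of 2.72%. The gene below the filter was Npy, which encodes neuropeptide Y, known as an abundant peptide of hippocampal interneurons. Its low count is therefore not read as absence of expression, and whether the annotation captured its reads was not tested. At an unadjusted p under 0.05, 22 of the 77 passed in withdrawal vs. control, 15 in ethanol vs. control and 19 in withdrawal vs. ethanol, against 19.7%, 12.5% and 16.7% of all genes. For ethanol vs. control, edgeR with 3 surrogate variables called 0 of the 77 and DESeq2 with them called 6, in a fit that called 2.65% of all genes. For the fits that follow in this paragraph the share of all genes called is not given, so their counts are not read against a background. The count between withdrawal and control rested on the surrogate variables and on single rats. Without surrogate variables it was 0 by limma-voom and edgeR and 2 by DESeq2. It was 2 without withdrawal rats 1 and 5, and 5 without ethanol rats 1 and 4 or without all 4 of these rats. It was 0 without control rat 4, control rat 5 or withdrawal rat 6, 1 without control rat 3, 2 without control rat 1 or 6, 3 without withdrawal rat 1, 4 without control rat 2 or withdrawal rat 3, 8 without withdrawal rat 4, and 13 without withdrawal rat 2. The count of 2 between withdrawal and ethanol held only without ethanol rat 4 or withdrawal rat 5 among the fits that left out 1 rat. It was 12 without ethanol rat 5, 8 without withdrawal rat 2, 5 without withdrawal rat 1, 4 without withdrawal rat 4, 1 without control rat 1, 2 or 3 or ethanol rat 1, and 0 without any other single rat. Each of the 10 calls named next kept its sign in 37 alternative fits, of which 11 (Ppargc1a) to 28 (Pde8a) called it. Each was lost without surrogate variables (q = 0.180 to 0.594 by limma-voom). Without the 4 rats that stood apart Pde8a, Pkia and Camkk1 remained called.

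Among the cyclases outside the 7, Adcy6, which calcium inhibits like Adcy5, was called higher in withdrawal than in control rats. Its level was 61.1 to 76.6 CPM (median 69.1) against 58.1 to 67.0 CPM (median 62.7). Its log2 fold change was 0.16 ± 0.048 (q = 0.0933 by limma-voom), with 3 withdrawal rats above all control rats. It was called in 12 of 37 alternative fits, in which q ran up to 0.618. In ethanol rats it was at 61.0 to 76.9 CPM (median 71.7), and the log2 fold change against control was 0.09 ± 0.051 (q = 0.483 by limma-voom). Adcy4 and Adcy10 were low, with group means of 4.47 to 5.30 CPM and 2.21 to 2.92 CPM, and neither was called in any comparison.

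Of 16 cyclic nucleotide phosphodiesterases, which degrade cyclic nucleotides, 2 rose in withdrawal and none fell, with a median log2 fold change of 0.02 over the list. Pde8a, a cyclic AMP phosphodiesterase, was at 42.1 to 53.7 CPM in withdrawal rats (median 47.3) and 30.7 to 47.2 CPM in control rats (median 39.1), with a log2 fold change of 0.28 ± 0.074 (q = 0.0577 by limma-voom). Pde4c was at 2.73 to 4.38 CPM against 2.06 to 2.81 CPM, with 0.47 ± 0.132 (q = 0.0755 by limma-voom). In the ethanol group, set against the same control rats, the means were 49.3 CPM for Pde8a and 3.45 CPM for Pde4c, and the log2 fold changes of 0.26 ± 0.080 and 0.47 ± 0.142 did not pass (q = 0.179 for each by limma-voom). Of 9 genes for subunits and inhibitors of protein kinase A, 1 fell in withdrawal: Pkia, an inhibitor of the catalytic subunit, was at 196 to 264 CPM against 228 to 268 CPM, with a log2 fold change of -0.14 ± 0.042 (q = 0.0788 by limma-voom). The highest withdrawal rats for Pkia were rats 1 and 5, and 4 withdrawal rats lay below all control rats.

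None of 7 G protein alpha subunits and none of 6 EPAC and AKAP genes was DE in any comparison. Of 13 kinases, partners and coactivators of CREB, 1 rose and 1 fell in withdrawal. Atf1, a close relative of Creb1, was at 28.4 to 34.8 CPM in withdrawal rats and 26.2 to 29.1 CPM in control rats, with a log2 fold change of 0.16 ± 0.049 (q = 0.0855 by limma-voom). Crtc1, a coactivator that binds CREB, was at 160 to 230 CPM against 199 to 246 CPM, with -0.17 ± 0.045 (q = 0.0639 by limma-voom), and the lowest withdrawal rats were rats 5 and 1. Camkk1, a kinase that activates CREB kinases of the CaMK family, fell in withdrawal against ethanol, with 251.4 to 383.8 CPM (median 364) against 291 to 480 CPM (median 427) and a log2 fold change of -0.30 ± 0.082 (q = 0.0883 by limma-voom). The groups overlapped, with only withdrawal rat 5 below all ethanol rats.

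Of 23 CREB target genes tested, 2 rose in withdrawal against control and none fell. The median log2 fold change over the list was 0.23 in withdrawal and 0.15 in ethanol rats, both against the same control rats, and 0.03 for withdrawal vs. ethanol, beside 0.000303, 0.000455 and -0.000236 over all genes. Bdnf, the neurotrophin, was at 29.7 to 99.7 CPM in withdrawal rats (median 45.1) and 26.5 to 35.4 CPM in control rats (median 34.4), with a log2 fold change of 0.67 ± 0.201 (q = 0.0868 by limma-voom). Vgf, a neuropeptide precursor, was at 30.6 to 80.8 CPM against 22.3 to 38.4 CPM, with 0.72 ± 0.208 (q = 0.0784 by limma-voom). In both genes 5 of 6 withdrawal rats lay above all control rats and withdrawal rat 1 was the highest of all rats. Without the 4 rats that stood apart, q was 0.293 for Bdnf and 0.210 for Vgf. Over 37 alternative fits the log2 fold change was 0.36 to 0.76 for Bdnf and 0.50 to 0.86 for Vgf. Between withdrawal and ethanol Ppargc1a, a metabolic coactivator gene, rose from 62.2 to 70.6 CPM (median 65.3) to 67.2 to 87.1 CPM (median 71.4), with a log2 fold change of 0.15 ± 0.041 (q = 0.0936 by limma-voom) and 3 withdrawal rats above all ethanol rats.

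**Figure D5:**
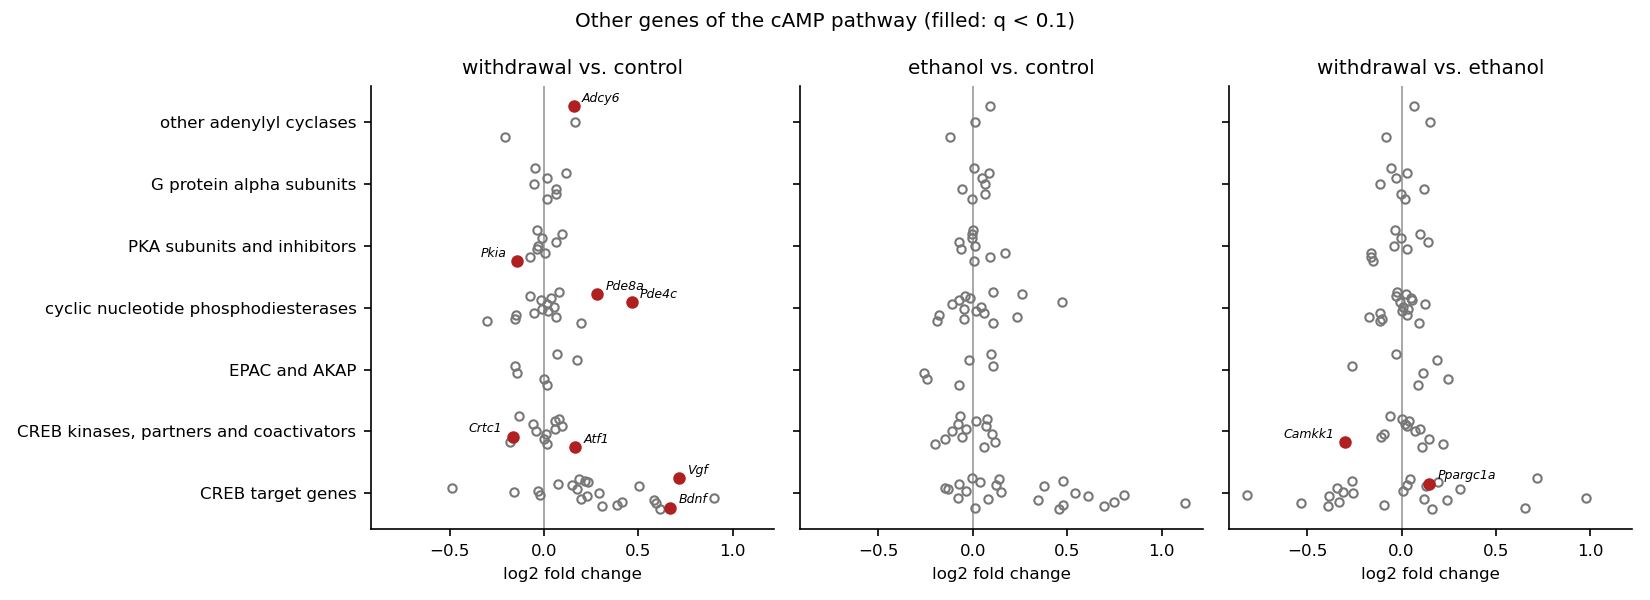
Fitted log2 fold changes of 77 other genes of the pathway by list in the 3 comparisons, with filled points for genes at q < 0.1 by limma-voom. There are 8 filled points for withdrawal vs. control, none for ethanol vs. control and 2 for withdrawal vs. ethanol.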

How the data were processed

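Dorsal hippocampus of 18 rats yielded total RNA for TruSeq stranded mRNA libraries, which were sequenced in pairs of 100-nt reads. Per the submitters' processing notes, the methods of the study and the file headers, the authors checked reads with FastQC 0.11.4, aligned them to Rnor_6.0 (NCBI annotation 106) with STAR 2.5.2a and counted read pairs per gene by strand with featureCounts 1.5.0. The deposited values are raw counts per gene with exon lengths. Total counts per rat ran from 30873228 to 42679748. Symbols, GRCr8 promoter windows and their positions came from RefSeq tables.

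Groups followed the treatment labels, and replicate numbers the titles. Counts were TMM-scaled in edgeR 4.0.16 and genes above 0.5 CPM in at least 1 rat were kept. limma 3.58.1 (voom) fitted 3 groups with 3 surrogate variables from sva 3.50.0, estimated from log2 CPM (prior count 2), with q < 0.1 as the threshold. The study adjusts for surrogate variables as well. Single genes also had a two-sided exact permutation test of mean log2 CPM over 924 splits, with 30 tests adjusted together and 0.00216 the smallest p possible. The edgeR quasi-likelihood test and DESeq2 1.42.0, other scalings, filters and numbers of surrogate variables, a replicate block and fits without single rats were tried, all run in R 4.3.3. Scripts were tested on simulated data. The members, gene lists and tests were chosen with earlier results of these data known. Named pathway genes were Adcy4, Adcy6, Adcy10 and the called genes, up to 12 per comparison with the smallest q. For Creb1, which had the smallest q, the 3 genes with the highest correlation over rats were named. Intervals are at the 95% level. Fits without the 4 rats that stood apart in granule cell or striatal markers were added after the data were seen. 1 gene of the striatal marker list is not reported here and was left out of its sum.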

Additional observations from a re-analysis of the deposited data

Results flagged for a closer look

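In 6 of the 30 sets of 6 rats (10 genes in 3 groups), 1 rat lay far from the others by Dixon's test of the gap to the nearest rat over the range. Chance gives about 1 in 20 such sets, or 1.5 of 30. Adcy1 was at 1330 CPM in control rat 6, against 1600 to 1690 CPM in the other control rats. Adcy2 was at 105 CPM in withdrawal rat 6, against 128 to 139 CPM in the others of its group. Adcy9 was at 101 CPM in withdrawal rat 5, against 159 to 184 CPM. Creb1 was at 49.6 CPM in control rat 3, against 40.6 to 43.5 CPM. In withdrawal rat 1, Creb1 was at 54.7 CPM against 42.5 to 45.7 CPM and Crebbp at 84.0 CPM against 60.4 to 63.8 CPM in the others.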

How the results depend on the processing

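The comparisons rested on 6 rats per group with at least 30873228 read pairs each, and the lowest of the 10 genes, Adcy7, had 161 to 910 counts per library. Of 1120 values of single genes under the alternatives, 12 passed the threshold with the same sign and 75 had the opposite sign, none of those past it. Of the 10 genes, the number called between ethanol and control was 1 by DESeq2 without surrogate variables and 1 without withdrawal rats 1 and 5 (0 to 1 when single rats were left out). Between withdrawal and ethanol it was 1 by limma-voom and 1 by edgeR without surrogate variables, where limma-voom called 3.48% of all genes. By DESeq2 it was 2 without them and 1 with 3 of them, where the latter fit called 6.59% of all genes. Without single rats it was 0 to 1, and between withdrawal and control 0 to 2. Where no share is given for a fit in this section, its count is not read against a background. Of the pathway genes, 8 were called between withdrawal and control. This became 0 without surrogate variables by limma-voom and edgeR, 2 by DESeq2 without them, 5 with 2 surrogate variables, 0 without a filter, 0 at q < 0.05, 2 without withdrawal rats 1 and 5, 5 without ethanol rats 1 and 4, 5 without all 4, 0 without all 4 and without surrogate variables, and 0 to 13 without single rats. Between ethanol and control, 0 became 3 by DESeq2 without surrogate variables and 6 with them, in a fit that called 2.65% of all genes. It became 4 with sample weights, 4 without withdrawal rats 1 and 5, 6 without all 4, and 0 to 1 without single rats. Between withdrawal and ethanol, 2 became 0 with 2 surrogate variables and 5 with 4, 7 and 8 by DESeq2 without and with them, 9 with sample weights, 0 without a filter, 0 with only the 2 groups, 6 without withdrawal rats 1 and 5, 10 without all 4, 1 without all 4 and without surrogate variables, 0 at q < 0.05, and 0 to 12 without single rats. Same-numbered rats did not deviate together (18 pairs, r = -0.325 to 0.383, median -0.073, with 4 over 0.1), so the numbers were not taken as pairing. With the replicate block and 3 surrogate variables the 10 genes had 0 calls in each comparison, Creb1 between withdrawal and ethanol was 0.17 (q = 0.346 by limma-voom), and pathway calls were 9, 0 and 0 for withdrawal against control, ethanol against control and withdrawal against ethanol. With the block and no surrogate variables pathway calls were 0 in each.

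The following values turned sign against those fitted with 3 surrogate variables on all rats, and the cause was not tested. Between withdrawal and control, leaving out withdrawal rats 1 and 5, then all 4, then all 4 with no surrogate variables gave Adcy7 -0.01, -0.02 and -0.34 and Crebbp -0.01, -0.03 and -0.01, and Adcy1 was 0.02 in the first of these and 0.04 in the last. Adcy3 was -0.01 with sample weights, -0.01 with upper quartile scaling, -0.01 without withdrawal rats 1 and 5 and -0.03 without all 4. Adcy9 was -0.04 without surrogate variables, -0.02 by edgeR and -0.02 by DESeq2 without them, and -0.04 with the block and none. Without single rats, Adcy3 ran from -0.01 to 0.04, Adcy9 from -0.01 to 0.06 and Crem from -0.02 to 0.14. Between ethanol and control, the fits without surrogate variables by limma-voom, edgeR, DESeq2 and with the block gave Adcy1 -0.03, -0.03, -0.03 and -0.03, Adcy7 0.06, 0.07, 0.06 and 0.07, Adcy9 -0.10, -0.09, -0.10 and -0.10, and Crebbp -0.06, -0.07, -0.07 and -0.06. Adcy8 was 0.02 without them and 0.02 with the block. With 2 surrogate variables Adcy9 was -0.02 and Crebbp -0.03, with upper quartile scaling Adcy9 was -0.01, and with only the 2 groups Crebbp was -0.05. Crem was -0.02 with sample weights, -0.02 without withdrawal rats 1 and 5, -0.03 without ethanol rats 1 and 4, -0.03 without all 4 and -0.02 without all 4 and surrogate variables. Without single rats, Adcy1 ran from -0.08 to 0.12, Adcy9 from -0.01 to 0.04, Crem from -0.04 to 0.08 and Crebbp from -0.04 to 0.07. Between withdrawal and ethanol, Adcy2 was 0.15, 0.14, 0.14 and 0.15 in the 4 fits without surrogate variables and 0.17 within the shared index set. Adcy7 was -0.24 without all 4 rats and surrogate variables, Adcy9 -0.01 with sample weights, Crem -0.02 without surrogate variables and -0.01 with the block, and Crebbp -0.01, -0.02 and -0.02 in the fits without withdrawal rats 1 and 5, all 4, and all 4 with no surrogate variables. Without single rats, Adcy5 ran from -0.19 to 0.01 and Adcy9 from -0.01 to 0.05.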
